A study of Mus musculus with 16 samples.

Results

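The cytosolic sensors of nucleic acid studied here are 9 genes, taken as every row of the count files whose Ensembl identifier maps to Aim2, Ifih1, Ddx58, Dhx58, Zbp1, Mavs, Eif2ak2, Adar or Trex1. All 9 were found in each of the 16 files, among 55335 identifiers in the files of libraries with a stated age and 54532 in the others. The libraries are RNA sequencing of mouse thymic double-positive cells, the stage that carries both CD4 and CD8, sorted by flow cytometry. By their labels, 4 libraries are old WT, 3 young WT and 3 young METTL3 KO, and a further 3 WT and 3 METTL3 KO libraries carry no age. They give no age in weeks, no strain, no allele or Cre driver for the knockout and no batch, and nothing in them says that replicates came from separate animals, so p-values measure the spread between these libraries.

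Cells read foreign or misplaced nucleic acid in the cytosol with a small set of receptors. AIM2 binds double-stranded DNA and assembles an inflammasome, and ZBP1 binds left-handed Z-form nucleic acid and passes the signal to the kinase RIPK3. RIG-I (Ddx58) and MDA5 (Ifih1) bind double-stranded RNA and signal through MAVS on mitochondria to interferon genes, while LGP2 (Dhx58) lacks the signalling domains of its relatives and tunes them. The kinase PKR (Eif2ak2) halts translation when it binds double-stranded RNA. ADAR1 (Adar), which edits adenosine to inosine, and TREX1, a DNA exonuclease, keep the cell's own RNA and DNA from being sensed. Most of these genes are also induced by interferon. METTL3 is the methyltransferase that places N6-methyladenosine on RNA, and its loss in blood-forming cells has been reported to let endogenous double-stranded RNA build up.

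Because interferon induces most of these genes, the promoter windows of the members were searched for the core of the interferon-stimulated response element (ISRE: GAAA, any 2 bases and GAAA) and for the gamma-activated site (GAS: TTC, any 3 bases and GAA), on both strands. The windows are RefSeq sequences of GRCm38.p6 that run from 250 bases before a transcription start to 50 after it. A window was at hand for 7 of the 9 members, and Dhx58 and Zbp1 had none. The stretches with a match are shown 5′ to 3′ on the gene's strand, with the match in capitals (that of Ddx58 reads on the opposite strand), followed by the 250 bases before the start of Aim2, which held neither.
Ifih1 ISRE, chr2:62646206-62646235, minus strand: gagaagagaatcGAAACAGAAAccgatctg
Ddx58 ISRE, chr4:40239804-40239833, minus strand: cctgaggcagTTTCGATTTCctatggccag
Eif2ak2 ISRE, chr17:78882535-78882564, minus strand: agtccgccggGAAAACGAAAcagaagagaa
Eif2ak2 GAS, chr17:78882731-78882760, minus strand: ctgcagagctTTCCCAGAAtggaagccagg
Adar GAS, chr3:89730730-89730759, plus strand: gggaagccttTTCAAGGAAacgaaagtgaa
Aim2 before the start, chr1:173420354-173420603, plus strand: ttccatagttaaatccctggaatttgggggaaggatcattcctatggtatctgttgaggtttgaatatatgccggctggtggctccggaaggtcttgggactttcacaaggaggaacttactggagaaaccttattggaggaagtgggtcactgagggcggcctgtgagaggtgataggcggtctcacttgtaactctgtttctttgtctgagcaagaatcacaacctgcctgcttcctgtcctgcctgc

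The ISRE core was present in 3 of the 7 members with a window, Ifih1, Ddx58 and Eif2ak2, and in 3.99% of the 27025 genes with a window (3.44% of all 32851 windows, as a gene can have several). Each of the 3 matches lay downstream of the annotated start, at bases 33 to 42 in Ifih1, 3 to 12 in Ddx58 and 19 to 28 in Eif2ak2. Among interferon-stimulated genes outside the members, 10 of 22 with a window held it. The GAS letters were present in 2 of the 7, Eif2ak2 and Adar, against 9.55% of genes (8.30% of windows) and 6 of the 22 interferon-stimulated genes. In Adar the match belonged to the third of 3 annotated starts, at bases 23 to 31 after it. The RefSeq start of Aim2 used here, base 173420604 of chromosome 1, lies inside the GENCODE gene and not at its end. The Adar stretch shown above ends in the letters of the ISRE core up to its last base, which the exact search does not count. No match in Aim2, Mavs or Trex1, and no ISRE match in Adar, says only that these exact letters are not in these windows.

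Each library with an age held 9781368 to 10307780 gene counts, against 15927134 to 16167074 in the WT libraries without one and 10575795 to 13740694 in their METTL3 KO counterparts. In the set without age 50.5% to 52.2% of counted entries had no alignment, beside 0.577% to 0.826% in the other, so levels were set side by side only within a set. Levels are CPM (counts scaled by TMM to a common library total), given per library in the order of the replicate numbers, and group values are mean ± SD. The targeted gene, Mettl3, stood at 63.8 ± 3.66 CPM in young WT (n = 3) and 63.7 ± 1.33 in the libraries labelled young METTL3 KO (n = 3), so its count does not set the 2 groups apart. Without a stated age Mettl3 stood at 48.9 ± 4.96 CPM in WT and 32.7 ± 5.82 in METTL3 KO (n = 3 each), a log2 difference of -0.58 ± 0.18 (SE, edgeR quasi-likelihood test, adjusted p = 0.0189). Its exons overlap 933 bases of Tox4 on the other strand, and Tox4 fell by 1.27 on the log2 scale in the same libraries. Whether the count used strand is not given in any source used here.

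The 10 double-positive markers (among them Cd4, Cd8a and Rag1) summed to 15037 to 16874 CPM in young WT, 12871 to 16644 in old WT and 15294 to 16383 in libraries labelled young METTL3 KO. They summed to 15820 to 17495 CPM in WT without age and to 8424 to 10823 in METTL3 KO without age. There 6 of the 10 were called lower (edgeR, adjusted p under 0.05), against 24% of all genes tested in that comparison. Rag1 went from 5852 ± 738 to 1077 ± 121 CPM (n = 3 each). A list of 12 B cell markers summed to 453 to 517 CPM in young WT and to 744, 1060, 2465 and 508 CPM in the 4 old WT libraries. The myeloid list of 11 genes stood at 36.8 to 39.0 CPM in young WT, at 328.8 in old WT replicate 3 and at 42.9 to 51.3 in the other old WT libraries. Mature single-positive markers (10 genes) summed to 449 to 462 CPM in young WT and were also highest of old WT in replicate 3, at 733 against 496 to 505. No marker of these lists passed the test with age. Differences were above 0 for 11 of 11 B cell markers tested (median log2 2.90), 9 of 9 myeloid (1.96) and 10 of 10 mature single-positive (0.99). Dendritic cell markers had 6 of 7 above 0 (median 1.02), and natural killer, NKT and gamma-delta markers 3 of 3 tested (0.85). Double-positive markers had 7 of 10 (0.04), whereas thymic epithelium had 0 of 2. In bulk libraries a change in the number of cells of a type and a change in RNA per cell cannot be told apart.

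One member could not be measured. Trex1 (ENSMUSG00000049734, chr9:109057933-109059734, minus strand, mm10) had 0 counts in all 16 libraries. All 1147 bases of its exons lie inside exons of Atrip on the same strand, so reads from Trex1 also fall within Atrip, and the 0 is no measure of the level of Trex1. Atrip itself, a partner of the checkpoint kinase ATR, stood at 33.9 ± 0.718 CPM in young WT (n = 3), 31.3 ± 3.78 in old WT (n = 4) and 32.2 ± 1.91 in the libraries labelled young METTL3 KO (n = 3). It stood at 44.4 ± 5.17 CPM in WT and 41.4 ± 4.30 in METTL3 KO without age (n = 3 each), and it did not pass the test in any comparison. The other 8 members passed the filter on low counts in both sets.

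Per kilobase of exon, the order of the members in young WT ran from Adar (11.5 ± 1.33 CPM per kb) through Zbp1 (7.64 ± 0.657), Ddx58 (4.87 ± 0.341), Mavs (4.82 ± 0.385), Eif2ak2 (4.34 ± 0.492), Aim2 (3.22 ± 0.276) and Dhx58 (1.28 ± 0.0737) to Ifih1 (0.884 ± 0.0540; n = 3 each). Ddx58 overlapped Mavs, and Mavs overlapped Eif2ak2, over the 3 libraries, whereas the other neighbours in that order did not overlap. The editor of double-stranded RNA was thus at the top of the list and the 2 receptors LGP2 and MDA5 at its foot. In old WT the mean of Aim2 (6.23 ± 0.502 CPM per kb, n = 4) moved from the sixth place to the fourth, above Eif2ak2 and Mavs, though its libraries overlapped those of Ddx58 and Eif2ak2 beside it. In WT without age Zbp1 (10.9 ± 0.507) and Adar (10.7 ± 0.831) overlapped at the top, and Ifih1 (0.947 ± 0.251) was again lowest. In METTL3 KO without age Zbp1 stood at 14.9 ± 2.17 CPM per kb, above every library of Adar (10.5 ± 1.92), with Aim2 at 9.90 ± 3.33 in the third place.

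The first comparison asks how old WT cells differ from young WT cells. Aim2 rose 1.94-fold, and it was the one member past the test. Ifih1, Ddx58 and Zbp1 were 1.47-fold to 1.54-fold higher with no overlap between the groups and did not pass. Mavs, Eif2ak2, Adar and Dhx58 overlapped. So 1 of 8 tested members was called, where 0.253% of 14228 genes were called in either direction (36 genes). At an unadjusted p under 0.05 there were 5 of 8, where 12.1% of all genes stood there. The groups did not overlap for 4 of 8, all higher in old WT, against 9.78% of all genes apart in either direction and 5.65% apart and higher. All 8 differences were above 0, with a median of 0.54 on the log2 scale against 0.01 over all genes tested. The members were chosen with earlier results of these data known, so these shares describe the list and do not test it.

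**Figure D1:**
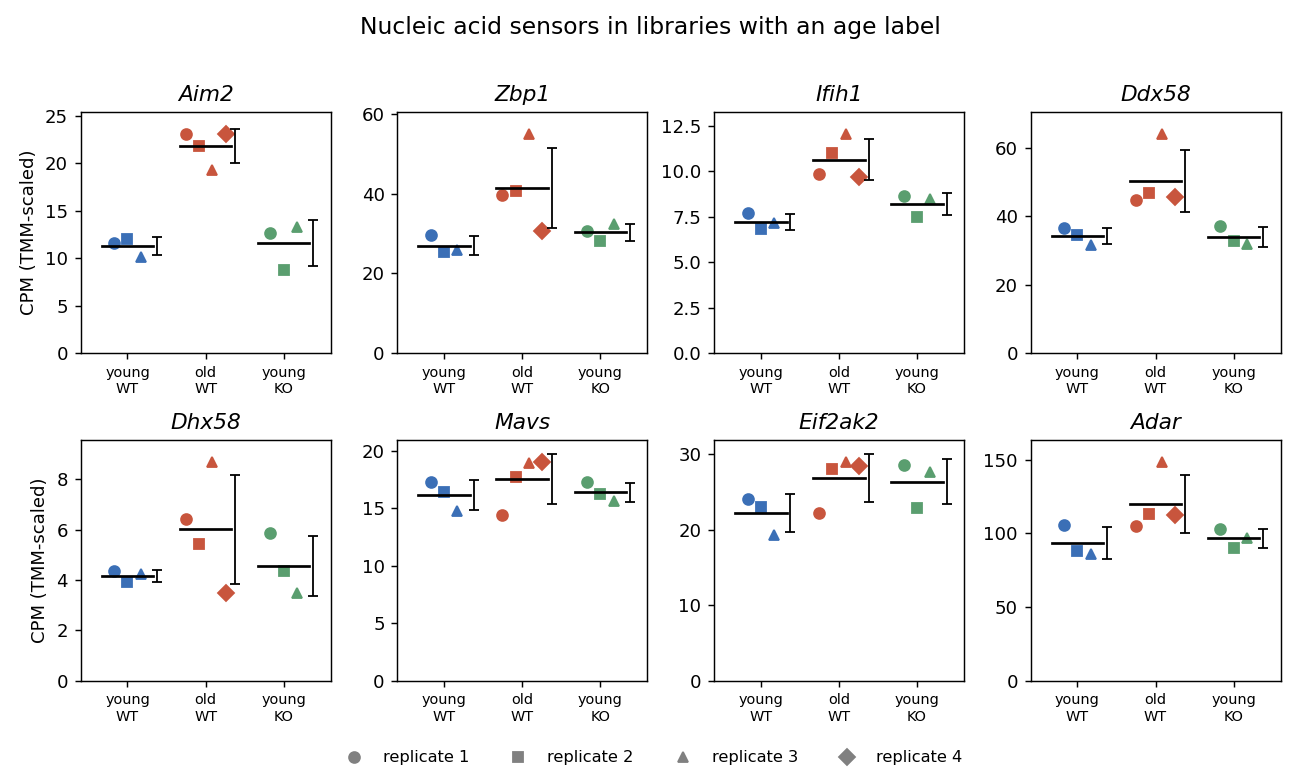
CPM (TMM-scaled, linear axes from 0) of the 8 measured members in the 10 libraries with an age label; points are libraries with a symbol for each replicate number, the line is the group mean and the bar beside it ± 1 SD. Aim2 lies at 10.2 to 12.025 in young WT and 19.3 to 23.1 in old WT, and the libraries labelled young METTL3 KO overlap young WT for all 8 genes.

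Aim2 (ENSMUSG00000037860, chr1:173350879-173466040, plus strand, mm10) had 11.6, 12.025 and 10.2 CPM in young WT (119, 120 and 101 counts) and 23.1, 21.8, 19.3 and 23.1 CPM in old WT (236, 220, 180 and 239 counts). Every old library lay above every young one, and replicate 3 was the lowest of the old. The log2 difference was 0.95 ± 0.15 (SE, 95% interval 0.62 to 1.28, edgeR quasi-likelihood test, adjusted p = 0.0211). Leaving out old WT replicate 3, the library highest in B cell and myeloid markers, gave 1.01 (adjusted p = 0.0103). The call was lost without young WT replicate 1 (log2 difference 0.97, adjusted p = 0.104), replicate 2 (1.00, adjusted p = 0.137) or replicate 3 (0.89, adjusted p = 0.185).

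Zbp1 (ENSMUSG00000027514, chr2:173206612-173218923, minus strand) had 29.6, 25.3 and 26.0 CPM in young WT and 39.8, 40.6, 54.9 and 30.5 CPM in old WT. Old WT replicate 3 was highest and replicate 4 lay within 1 CPM of the top young library, so the groups were apart by a narrow margin. Its log2 difference was 0.62 ± 0.16 (SE, edgeR, adjusted p = 0.21).

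Of the RNA receptors, MDA5 (Ifih1, ENSMUSG00000026896, chr2:62595798-62646255, minus strand) stood at 7.69, 6.81 and 7.15 CPM in young WT and at 9.87, 11.0, 12.035 and 9.66 CPM in old WT. The groups did not overlap, and the log2 difference was 0.56 ± 0.15 (SE, edgeR, adjusted p = 0.21). RIG-I (Ddx58, ENSMUSG00000040296, chr4:40203773-40239828, minus strand) had 36.5, 34.7 and 31.7 CPM in young WT and 44.8, 46.8, 64.0 and 45.7 CPM in old WT. The 3 other old libraries sat within 2 CPM of each other, below replicate 3. That gave a log2 difference of 0.55 ± 0.13 (SE, edgeR, adjusted p = 0.156). LGP2 (Dhx58, ENSMUSG00000017830, chr11:100694884-100704271, minus strand) was low and uneven in old WT, at 6.45, 5.45, 8.70 and 3.48 CPM against 4.38, 3.91 and 4.23 CPM in young WT. Its log2 difference was 0.52 ± 0.29 (SE, 95% interval -0.09 to 1.14, adjusted p = 0.476 by edgeR).

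The adaptor Mavs (ENSMUSG00000037523, chr2:131234063-131248025, plus strand) had 17.2, 16.4 and 14.7 CPM in young WT and 14.4, 17.7, 18.9 and 19.0 CPM in old WT. The young range lay inside the old one, and the log2 difference was 0.12 ± 0.13 (SE, 95% interval -0.16 to 0.39, edgeR, adjusted p = 0.738). PKR (Eif2ak2, ENSMUSG00000024079, chr17:78852564-78882573, minus strand) had 24.1, 23.0 and 19.3 CPM in young WT and 22.2, 28.0, 29.0 and 28.4 CPM in old WT, where replicate 1 alone lay among the young values. Its log2 difference was 0.28 ± 0.13 (SE, edgeR, adjusted p = 0.422). Adar (ENSMUSG00000027951, chr3:89715022-89753446, plus strand) had 105.9, 88.2 and 86.3 CPM in young WT and 105.3, 113.5, 148.7 and 112.4 CPM in old WT. Old WT replicate 1 lay just below the highest young library. Adar thus had a log2 difference of 0.36 ± 0.12 (SE, edgeR, adjusted p = 0.316). Adar shares 1365 exon bases with Chrnb2 on the other strand, which had 28.8 ± 2.21 CPM over the 3 young WT libraries and 42.4 ± 11.2 over the 4 old ones (SD), and without a known strand setting reads of the 2 genes in that stretch cannot be told apart.

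Old WT replicate 3 held the highest value of the 4 old libraries for 6 of the 8 members (Ifih1, Ddx58, Dhx58, Zbp1, Eif2ak2 and Adar) and the lowest for Aim2. The same library had the highest B cell, myeloid and mature single-positive marker sums. It also stood apart in alignment, with 9.18% of counted entries not uniquely aligned. The other libraries with an age ranged from 4.46% (old WT replicate 4) to 5.36% (young WT replicate 3). Without it the log2 differences were 0.42 for Ddx58, 0.46 for Zbp1, 0.30 for Dhx58, 0.24 for Adar, 0.50 for Ifih1 and 0.24 for Eif2ak2, all still above 0 and none past the test. The part of other cells, or of the difference in alignment, in these values was not tested.

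**Figure D2:**
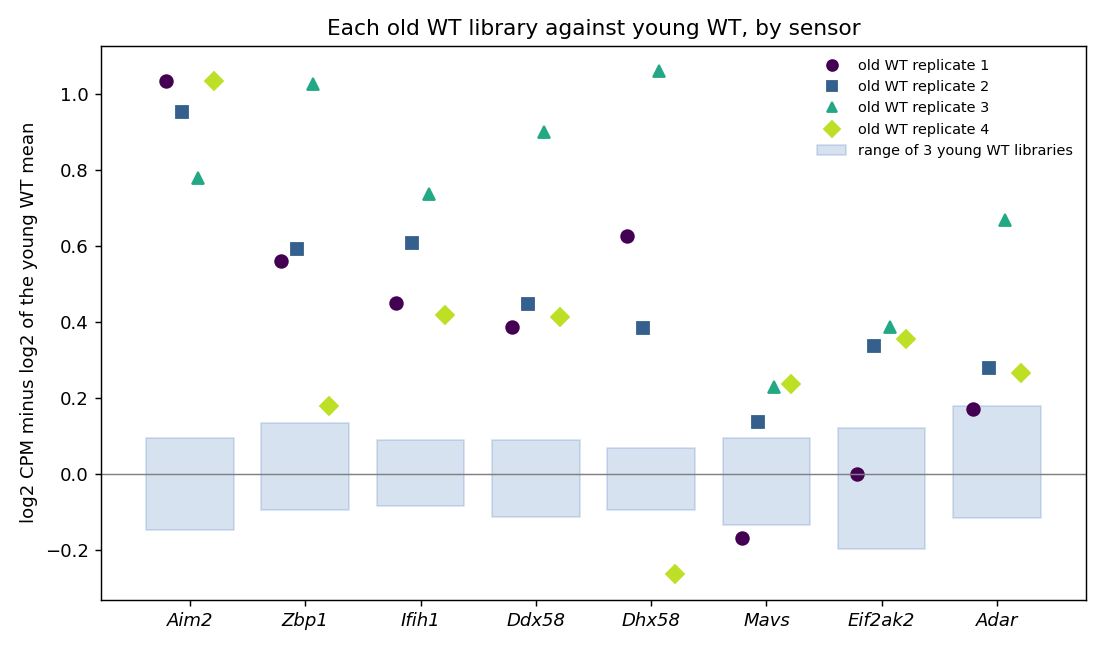
Log2 CPM of each of the 8 measured members in the 4 old WT libraries less the log2 of its young WT mean; symbols are old replicates and the shaded box spans the 3 young WT libraries. Replicate 3 is highest for 6 of the 8 members and lowest for Aim2, and no old library falls in the box for Aim2, Zbp1, Ifih1 or Ddx58.

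The next comparison sets the libraries labelled young METTL3 KO against young WT, and it shares the young WT libraries with the comparison by age. None of the 8 measured members passed the test, and neither did any of the 14228 genes tested (0%). At an unadjusted p under 0.05 there were 88 genes (0.618% of those tested) and no member. All 8 members overlapped between the groups, where 9.26% of all genes were apart. Of the 8 differences 7 were above 0, with a median of 0.09 on the log2 scale, beside 49.7% of all genes above 0. Without young WT replicate 3, or without replicate 1 labelled young METTL3 KO, 4 of 8 were above 0.

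Aim2 had 12.7, 8.79 and 13.3 CPM in the libraries labelled young METTL3 KO, on both sides of the young WT values of 10.2 to 12.025. The log2 difference was 0.04 ± 0.17 (SE, 95% interval -0.31 to 0.40, edgeR, adjusted p = 1). PKR showed the widest shift of the 8, with 28.6, 22.9 and 27.6 CPM against 24.1, 23.0 and 19.3, a log2 difference of 0.25 ± 0.14 (SE, 95% interval -0.06 to 0.56, edgeR, adjusted p = 1). Ifih1 differed by 0.18 ± 0.16, Zbp1 by 0.17 ± 0.17 and Dhx58 by 0.13 ± 0.31 on the log2 scale. Adar (0.05 ± 0.13), Mavs (0.02 ± 0.14) and Ddx58 (-0.01 ± 0.14) lay closest to 0. The 95% intervals of the 8 together ran from -0.54 to 0.79, both bounds set by Dhx58, which has the fewest counts.

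In the libraries without a stated age, the sensors moved in both directions. LGP2 (Dhx58) rose 2.32-fold, Aim2 1.89-fold and Zbp1 1.37-fold in METTL3 KO, and the adaptor Mavs fell by 0.76 on the log2 scale. These 4 of 8 tested members stand against 53.9% of 16432 genes called in this comparison, so their share is near the background. The groups did not overlap for the same 4, against 63.8% of all genes. The members' median log2 difference was 0.03, beside 0.08 over all genes.

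**Figure D3:**
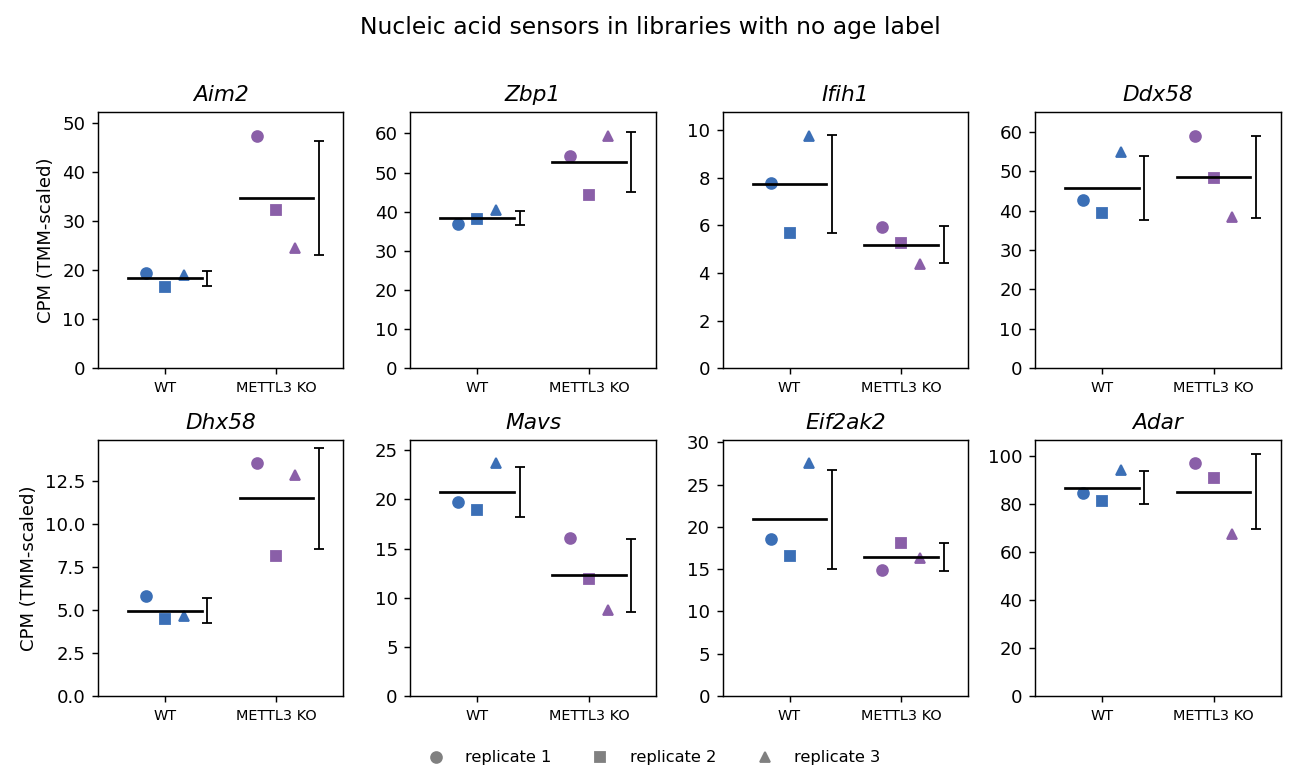
CPM (TMM-scaled, linear axes from 0) of the 8 measured members in the 6 libraries without an age label; points are libraries, the line is the group mean and the bar beside it ± 1 SD. Dhx58, Aim2 and Zbp1 lie higher in all 3 METTL3 KO libraries and Mavs lower, while Ifih1, Ddx58, Eif2ak2 and Adar overlap.

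Dhx58 had 5.81, 4.45 and 4.62 CPM in WT (89, 70 and 71 counts) and 13.5, 8.14 and 12.8 CPM in METTL3 KO (164, 93 and 170 counts). The lowest METTL3 KO library lay above the highest WT library, and the log2 difference was 1.21 ± 0.29 (SE, 95% interval 0.58 to 1.84, edgeR, adjusted p = 0.00439). The fit with sex (from Xist and Y-linked genes) as a covariate leaves METTL3 KO replicate 3 alone against WT and is left aside. The call held in all other alternatives run for this comparison, each library left out included. Dhx58os, which overlaps 141 of its exon bases on the other strand, stood under 0.1 CPM in 5 of these libraries and at 1.44 CPM in METTL3 KO replicate 3.

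Aim2 had 19.4, 16.5 and 19.0 CPM in WT and 47.4, 32.1 and 24.5 CPM in METTL3 KO. The METTL3 KO libraries were spread widely, with an SD of 11.7 CPM against 1.55 in WT, and all lay above WT. The log2 difference was 0.92 ± 0.24 (SE, 95% interval 0.39 to 1.45, edgeR, adjusted p = 0.00733), and it was 0.60 (adjusted p = 0.0425) without METTL3 KO replicate 1, the highest library. With sex (from Xist and Y-linked genes) as a covariate it was 0.42. The 3 WT libraries read as male and METTL3 KO as 2 female and 1 male. That fit therefore sets METTL3 KO replicate 3, the male library, alone against WT and cannot separate sex from a single library.

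Zbp1 had 36.8, 38.2 and 40.4 CPM in WT and 54.3, 44.4 and 59.5 CPM in METTL3 KO. All METTL3 KO libraries lay above WT, and the log2 difference was 0.45 ± 0.17 (SE, edgeR, adjusted p = 0.0393). This call was near the threshold. It held with METTL3 KO replicate 2 left out and was lost without WT replicate 1 (0.37, adjusted p = 0.195), WT replicate 2 (0.40, adjusted p = 0.15), WT replicate 3 (0.44, adjusted p = 0.0984), METTL3 KO replicate 1 (0.41, adjusted p = 0.106) or METTL3 KO replicate 3 (0.29, adjusted p = 0.141). The log2 difference ranged from 0.29 to 0.48 over these fits.

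Mavs had 19.7, 19.0 and 23.7 CPM in WT and 16.1, 11.9 and 8.77 CPM in METTL3 KO. No METTL3 KO library reached the lowest WT value, and the log2 difference was -0.76 ± 0.25 (SE, 95% interval -1.31 to -0.22, edgeR, adjusted p = 0.0222). Without WT replicate 3 it was -0.71 (adjusted p = 0.0645).

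The receptor Ifih1, which shares the adaptor with RIG-I, had 7.77, 5.66 and 9.77 CPM in WT and 5.95, 5.25 and 4.38 CPM in METTL3 KO. The groups overlapped through WT replicate 2, and the log2 difference was -0.57 ± 0.30 (SE, edgeR, adjusted p = 0.131). Ddx58 had 42.6, 39.5 and 54.8 CPM in WT and 59.0, 48.2 and 38.4 CPM in METTL3 KO, with a log2 difference of 0.09 ± 0.20 (SE, 95% interval -0.35 to 0.53, edgeR, adjusted p = 0.734). The direction for Ddx58 turned with no filter on low counts (-0.09). It was -0.25 with sex as a covariate, where METTL3 KO replicate 3 stands alone against WT. So the 3 RIG-I-like receptors, Dhx58, Ifih1 and Ddx58, had log2 differences of 1.21, -0.57 and 0.09 in the same libraries.

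PKR (Eif2ak2) had 18.6, 16.5 and 27.5 CPM in WT and 14.9, 18.1 and 16.3 CPM in METTL3 KO. The groups overlapped, and the log2 difference was -0.35 ± 0.23 (SE, edgeR, adjusted p = 0.229). The size varied with single libraries, at -0.15 (adjusted p = 0.616) without WT replicate 3 and -0.54 (adjusted p = 0.111) without WT replicate 2. Gm26637, whose exons share 174 bases with Eif2ak2 on the other strand, rose from 1.92 ± 0.720 to 5.28 ± 0.647 CPM (n = 3 each; log2 difference 1.46 ± 0.38 (SE), edgeR, adjusted p = 0.00782). Adar had 84.8, 81.5 and 94.5 CPM in WT and 97.2, 90.9 and 67.6 CPM in METTL3 KO, with a log2 difference of -0.03 ± 0.17 (SE, 95% interval -0.40 to 0.35, edgeR, adjusted p = 0.9).

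B cell markers moved with these groups: 9 of the 12 passed the test as higher in METTL3 KO, and their sum ranged from 547 to 661 CPM in WT and from 792 to 1209 in METTL3 KO. Myeloid markers summed to 21.6 to 31.7 CPM in WT and 42.6 to 55.2 in METTL3 KO, with 3 of 10 tested markers higher. Over all genes 29.9% were called higher and 24% lower in this comparison, so the share of myeloid markers called was that of the background. Of the 11 dendritic cell markers 9 were tested, 5 were higher and 1 lower, with a median log2 difference of 1.26. Their sum went the other way, from 1260 to 1722 CPM in WT and from 593 to 685 in METTL3 KO, because it is mostly Ccr9, a chemokine receptor that double-positive cells also carry (1385 ± 233 CPM in WT and 524 ± 59.0 in METTL3 KO, n = 3 each). In WT Clec9a and Batf3 had 0 CPM in every library. Natural killer, NKT and gamma-delta markers had 2 of 5 tested higher and summed to 33.3 to 39.8 CPM in WT and 32.8 to 57.1 in METTL3 KO. Mature single-positive markers had 1 higher and 1 lower of 9 tested, with sums of 502 to 614 and 431 to 475 CPM. The share of entries counted as outside genes was 7.23% to 7.60% in WT and 11.8% to 15.0% in METTL3 KO. The part of other cells, of the lower double-positive markers and of the reads outside genes in the values of the members was not tested.

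**Figure D4:**
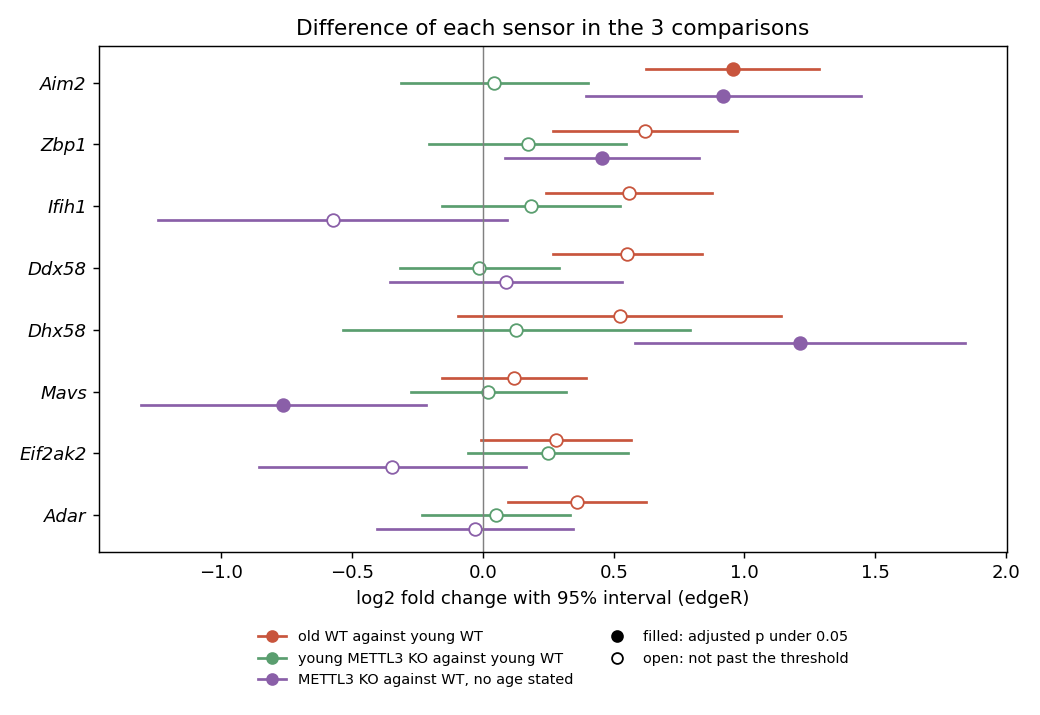
Log2 difference of each measured member with its 95% interval in the 3 comparisons, shown in 3 colours (edgeR quasi-likelihood fits); filled points have an adjusted p under 0.05. Aim2 is filled at 0.95 with age and 0.92 in METTL3 KO without age, and no point of the comparison of libraries labelled young METTL3 KO is filled.

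Whether the genotype difference was unequal between the sets was tested by an interaction over 12 libraries, as the difference without age less that under the young label. It was past the test for Aim2 (1.05 ± 0.32 (SE) on the log2 scale, edgeR, adjusted p = 0.0181) and Dhx58 (1.25 ± 0.36, adjusted p = 0.0134), or 2 of 8 members against 36.9% of 16557 genes. Zbp1 (0.45 ± 0.18, adjusted p = 0.0596) and Mavs (-0.61 ± 0.28, adjusted p = 0.0924) did not pass, nor did Ifih1, Eif2ak2, Ddx58 and Adar. Neither call held in every fit with 1 library left out. Such fits filter and scale the counts anew. Without any 1 of the 6 young libraries they tested 18324 to 18338 genes, with a median over all genes of 0.02 to 0.04. With all 12 libraries there were 16557 genes and a median of 0.14. The part of this shift in the lost calls was not tested. With 1 library left out at a time, Aim2 was called in 5 of 12 fits and ranged from 0.57 to 1.06. Its adjusted p was 0.0601 to 0.152 without any 1 of the 6 young libraries or METTL3 KO replicate 1 without age. Dhx58 was called in 6 of 12 fits, at 0.85 to 1.33. It was lost without any young WT library, without replicate 2 or 3 labelled young METTL3 KO or without METTL3 KO replicate 1 without age (adjusted p 0.0569 to 0.103). The 2 sets also differ in the share of reads aligned and in the files' gene lists, so the set and what the labels leave unstated cannot be told apart.

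The pathway around the sensors was followed in 10 lists of 150 genes, none of them members. These lists too were chosen with earlier results of these data known, so their counts and medians are descriptive. With age, 122 of these genes were tested and none passed, by edgeR at an adjusted p under 0.05. DESeq2 on the same libraries called 3 (Gbp2, Mndal and Parp14). In the DNA sensing and inflammasome list, where AIM2's partners stand, 12 of 12 tested genes had differences above 0, with a median of 0.37, beside 51.1% above 0 and a median of 0.01 over all genes. Mndal, a relative of Aim2, differed by 0.41 ± 0.10 (adjusted p = 0.153) and Gsdmd, the pore former, by 0.32 ± 0.11 (adjusted p = 0.322) on the log2 scale. Oligoadenylate synthetases and RNase L had 8 of 9 above 0 and a median of 0.91, led by Oas1b (1.03 ± 0.29, adjusted p = 0.242). Other interferon-stimulated genes had 25 of 26 above 0 and a median of 0.43, led by Gbp2 (0.69 ± 0.14, adjusted p = 0.077). Leaving out old WT replicate 3 moved these medians by more than 1.5 times, to 0.26 (8 of 9 above 0) for the oligoadenylate synthetases and RNase L, 0.28 (23 of 26) for the other interferon-stimulated genes and 0.23 (10 of 11) for DNA sensing, and the members' own median to 0.36 (8 of 8). Without young WT replicate 3 the median of the oligoadenylate synthetases and RNase L was 0.53. RIG-I and MDA5 signalling (14 of 26 above 0, median 0.01), the integrated stress response (6 of 11, median 0.01) and the ZBP1 death partners (6 of 6, median 0.05) had medians close to that of all genes. Interferon genes themselves were too low to test, and Ifnb1 had 0 CPM in all libraries.

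Single genes of these lists varied with old WT replicate 3. Samhd1, a nucleotide hydrolase, ranged from 4.64 to 56.8 CPM in old WT, and Unc93b1, which carries endosomal receptors, from 2.90 to 36.8 CPM. Cgas, the cytosolic DNA sensor that signals through STING, stood at 5.57 ± 1.08 CPM in young WT (n = 3) and 6.51 ± 1.30 in old WT (n = 4). The STING gene, listed as Tmem173, stood at 9.96 ± 1.21 and 15.7 ± 9.46 CPM in the same groups. Neither passed the test.

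In the libraries labelled young METTL3 KO none of the 122 genes passed against young WT. Differences were above 0 for 23 of 26 other interferon-stimulated genes (median 0.18) and 8 of 9 oligoadenylate synthetase and RNase L genes (median 0.07). Over all genes 49.7% were above 0. The endosomal sensors (1 of 6 above 0) and the integrated stress response (3 of 11) went the other way. Cgas differed by 0.45 ± 0.21, Herc6 by 0.38 ± 0.11 and Eif2ak4, another kinase that acts on PKR's target, by -0.42 ± 0.12 on the log2 scale (SE, edgeR, each with an adjusted p of 1).

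**Figure D5:**
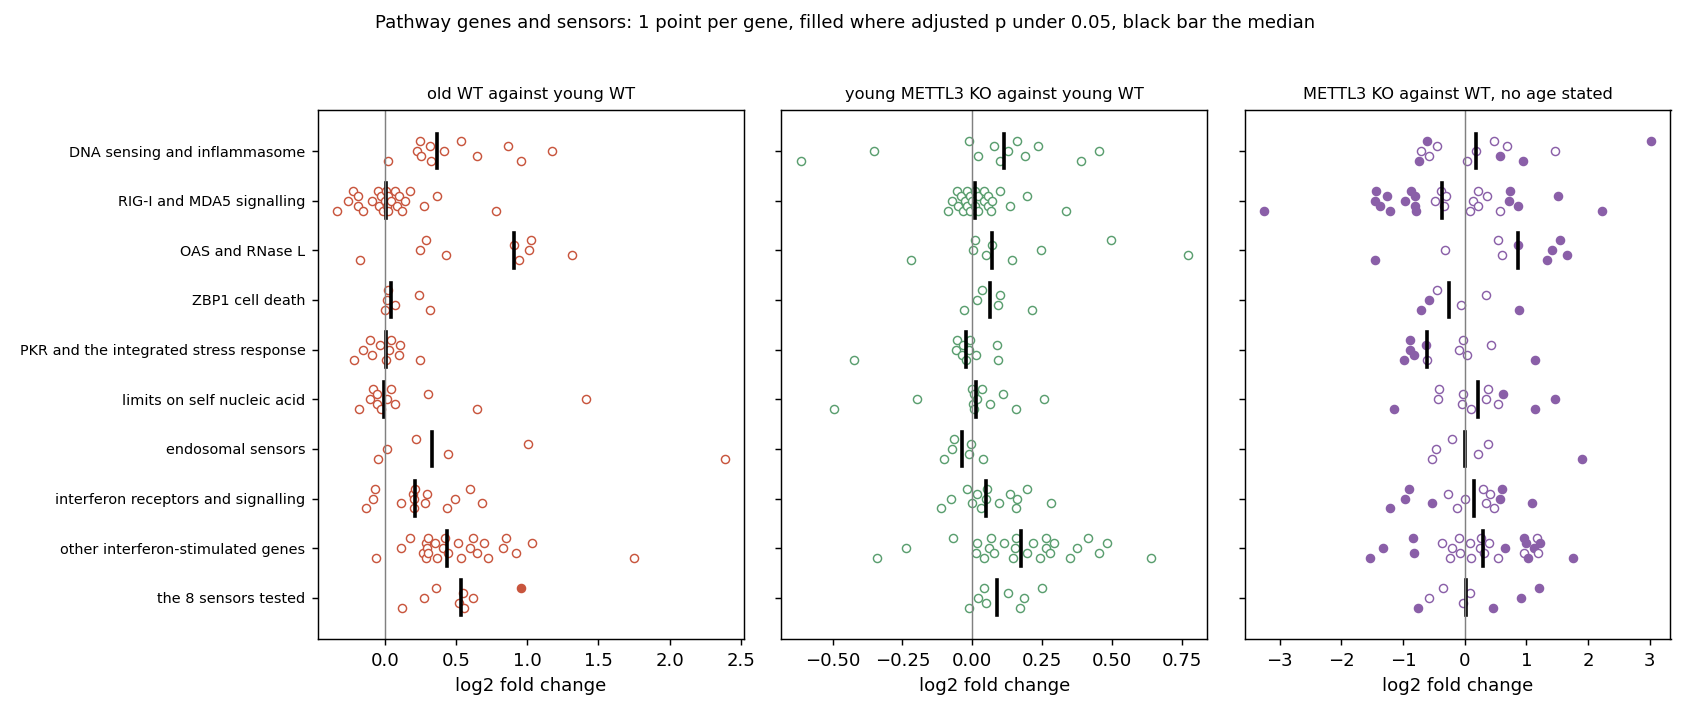
Log2 difference of each tested gene by pathway list, with the 8 sensors in the last row, in the 3 comparisons (the horizontal scales differ between panels); filled points passed the test and black bars mark medians. Aim2 is the one filled point in the first 2 panels and filled points lie on both sides of 0 in the last; the interferon list, of which Ifng alone was tested, is not drawn.

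In METTL3 KO without age, 30 of 124 tested pathway genes were higher and 30 lower, beside 29.9% higher and 24% lower over all genes. Of 26 genes of RIG-I and MDA5 signalling, 5 were higher and 11 lower. Rnf125, a ubiquitin ligase that marks RIG-I for degradation, fell by 3.25 on the log2 scale, from 19.7 ± 3.14 to 2.06 ± 0.476 CPM (n = 3 each; edgeR, adjusted p = 4.73e-05). Traf6, a ligase downstream of MAVS, fell by 1.45 (SE 0.17, adjusted p = 0.000127), whereas Irf7, the interferon gene activator, rose by 1.51 (SE 0.24, adjusted p = 0.000522). Among those that fell were thus a gene that restrains RIG-I and one that carries its signal.

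Among the oligoadenylate synthetase genes, 5 of 9 tested were higher (Oas1b, Oas1c, Oas2, Oasl1 and Oasl2, by 0.87 to 1.66 on the log2 scale) and Pde12, which removes their product, was lower. The DNA sensing list had 3 higher and 2 lower of 13. For this and the other lists, the background over all genes was 29.9% higher and 24% lower. Gsdmd went from 73.4 ± 7.29 to 141.2 ± 9.04 CPM, while Ifi209 (-0.74 ± 0.24, adjusted p = 0.0201), a relative of Aim2, fell. Of the ZBP1 partners, Ripk3 went from 44.5 ± 0.690 to 82.5 ± 4.48 CPM (0.89 ± 0.15, adjusted p = 0.000605), and Cflar and Ripk1 were lower. Of 11 genes around PKR, 5 were lower, Eif2s1 (the alpha subunit of PKR's target) by 0.89 among them, and 1, Ddit3, was higher. Of 12 tested genes that limit sensing of self nucleic acid, 3 were higher and 1 lower, with Samhd1 at 5.78 ± 0.714 CPM in WT and 16.001 ± 2.40 in METTL3 KO and the exonuclease gene Xrn1 lower.

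Of the interferon list, Ifng was the one gene tested, at 0.344 ± 0.143 CPM in WT and 1.86 ± 0.703 in METTL3 KO (2.41 ± 0.63 on the log2 scale, adjusted p = 0.0074), and Ifnb1 had no count. Receptors and signalling gave 3 higher and 4 lower of 14. Stat2 went from 100.2 ± 11.2 to 213.5 ± 18.1 CPM (1.09 ± 0.15, adjusted p = 0.000254), and Jak1 fell by 1.20 on the log2 scale. Other interferon-stimulated genes gave 7 higher and 4 lower of 26: Psmb8, Ifit1, Ifi35, Isg15, Ifitm3, Ifi27l2a and Xaf1 rose, and Dtx3l, Ifit2, Samd9l and Gbp2 fell. Of 6 endosomal sensor genes, Unc93b1 was higher and no other was called. All p-values here are edgeR's, adjusted over 16432 genes, of which 29.9% were called higher and 24% lower.

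The genes most like each member across the 10 libraries with an age were found by the mean absolute difference of log2(CPM + 0.5), each gene centred on its own mean, among 10723 genes of at least 5 CPM. For Aim2 these were Igip (0.137), Wnt8b (0.141) and Tnfsf10 (0.151), where Aim2 itself deviated from its mean by 0.438. For Mavs, the member that varied least (0.108), they were Traf3 (0.0264), Pde4d (0.0348) and Abcc4 (0.0356). The nearest gene was Tsc22d1 for Ifih1 (0.0648), Map3k14 for Ddx58 (0.0671), Tctn1 for Zbp1 (0.0761), Naif1 for Eif2ak2 (0.0662), Nucb1 for Adar (0.0474) and Cdk2ap2 for Dhx58 (0.129). Fam189b stood among the 3 nearest genes of both Ifih1 (0.0684) and Zbp1 (0.0775). Between members, Ifih1 was nearer to Adar (0.0812), Zbp1 (0.0895) and Ddx58 (0.105) than to Aim2 (0.250). These measures describe 10 libraries that share 3 groups and carry no test.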

How the data were processed

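Raw read counts per gene were deposited by the authors, 1 file per library. The aligner was HISAT2 2.0.5 and the build mm10, per the submitters' processing notes; program, annotation and strand of the counting are not stated there or in the labels. The lines that name no gene (reads outside genes, ambiguous, not aligned and the like), 56.8% to 58.4% of entries with an age and 62.7% to 72.7% without, were left out. Coordinates and exon lengths came from GENCODE annotation of mm10.

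Counts were filtered by filterByExpr, scaled by TMM and tested with edgeR 4.0.16's robust quasi-likelihood fit in R 4.3.3 (two-sided, Benjamini-Hochberg over all genes, threshold 0.05). The comparison by age and that of the libraries labelled young METTL3 KO share 1 fit of 10 libraries, the comparison without age used 6 libraries and the interaction 12. The procedure was tested on simulated data. Of 1.5-fold changes it recovered 46% for age, 38% for the libraries labelled young METTL3 KO and 10% without age. Of 2-fold changes it recovered 84%, 83% and 56%. A member that did not pass can therefore still differ by such an amount. Alternatives were DESeq2 1.42.0 and its size factors, library size alone, no filter, 1 CPM in 3 libraries, limma-voom (limma 3.58.1), replicate block, sex, the 2 groups alone and each library left out. All 9 members are named, with up to 3 genes of smallest p per list. Of the genes most like a member, 3 are named for Aim2 and for Mavs. For the other members the nearest is named, and Fam189b. Overlapping partners are named in the results except Cadm3 (Aim2) and n-R5s29 (Eif2ak2), which did not pass the filter on low counts. Other genes (Tmem173, Samhd1, Cgas and further called list genes) were chosen after their values were seen. Members and lists were chosen with earlier results of these data known.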

Additional observations from a re-analysis of the deposited data

Results flagged for a closer look

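In old WT, Ddx58 at 64.05 CPM in replicate 3 stood apart from the other 3 libraries (44.8 to 46.8 CPM), and Eif2ak2 at 22.18 CPM in replicate 1 stood apart below the others (28.0 to 29.0 CPM), both by Dixon's test at the 95% level. Of the 8 members tested in this group of 4, chance flags about 1 in 20. The genotype difference of Aim2 was larger without age than under the young label by 1.05 on the log2 scale, and that of Dhx58 by 1.253, by the interaction test. Over all genes the median of that difference was 0.14.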

How the results depend on the processing

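With age, Aim2 was the one member called, against 3 with no filter on low counts and 3 by DESeq2 (both adding Ddx58 and Zbp1), 2 with the replicate block (adding Zbp1) and 0 to 2 with each library left out. Pathway genes called went from 0 to 3 by DESeq2, 2 with no filter, 2 with the replicate block and 0 to 2 with each library left out. Deviations from the group means correlated between -0.23 and 0.09 for same-numbered libraries and between -0.20 and 0.32 for differently numbered ones. With so few libraries per group this cannot settle whether the numbers pair samples, which the labels do not state. The replicate block changed 4 calls to 3 without age (Zbp1, 0.45, adjusted p = 0.0947) and none in the libraries labelled young METTL3 KO. All genes called with age were 36, against 85 with no filter, 153 by DESeq2, 61 with the replicate block, 11 with the 2 groups alone and 8 to 59 with each library left out.

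In the libraries labelled young METTL3 KO no alternative called a member or a pathway gene; with single libraries left out, log2 differences ranged across 0 for Aim2 (-0.067 to 0.21), Ddx58 (-0.087 to 0.034), Dhx58 (-0.093 to 0.29), Mavs (-0.042 to 0.072) and Adar (-0.0047 to 0.15).

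Without age, Mavs was lost with library size alone (-0.66, adjusted p = 0.0538) and Zbp1 with no filter (0.27, adjusted p = 0.305). Sex as a covariate leaves METTL3 KO replicate 3 alone against WT, so no loss of a call is read from that fit. Calls with each library left out numbered 2 to 4, and pathway calls 50 to 67. Adar turned above 0 with library size alone (0.078) and with 1 CPM in 3 libraries (0.011), and Ddx58 below 0 with no filter (-0.088). In the fit with sex Ddx58 was -0.25. Left-out libraries gave Ddx58 -0.10 to 0.19 and Adar -0.16 to 0.045. The median of all genes was 0.08, and 0.53 with no filter, which tests 33031 genes.

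For the interaction, calls were 3 by DESeq2 (adding Zbp1, 0.46, adjusted p = 0.0451), 3 with no filter (Aim2, Eif2ak2 and Mavs; Dhx58 1.00, adjusted p = 0.0593) and 0 to 4 with each library left out, where Ddx58 ranged from -0.081 to 0.37 and Adar from -0.25 to 0.10. Adar was -0.17 with no filter, where the median of all genes was 0.50. The causes were not tested. Counts per library of 35 to 170 for Dhx58 and 58 to 150 for Ifih1 limit the precision of those genes.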
